A study of Mus musculus with 4 samples.

Results

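Amino acid catabolism enzymes are described here as 37 named genes of the 35275 genes in the liver read count table. The members were taken by symbol from a list of enzymes that break down amino acids or exchange their nitrogen in the liver. The list also holds Etnppl, which degrades phosphoethanolamine and not an amino acid. No threshold on a measured value was used, although earlier results of these data were known when the list was made. All 37 were found by their symbol, all 37 reached at least 1 CPM (counts scaled to library size) in a library, and all 37 entered the model described below. The study asked how exercise training affects livers of mice with and without induced amyloidosis, in which misfolded apolipoprotein A-II (AApoAII) deposits as fibrils. Liver RNA was measured by sequencing in 4 groups of female mice, each 26 weeks old after 16 weeks of intervention. All groups carried the amyloidogenic Apoa2c allele, so the vehicle mice carried it as well. The sample labels give the strain as AKR/J with an Apoa2c congenic genotype, whereas the study's methods give R1.P1-Apoa2c mice on a SAMR1 background. Mice of the VS (vehicle, sedentary) and VI (vehicle, interval exercise) groups received PBS alone, and mice of the FS (fibril, sedentary) and FI (fibril, interval exercise) groups received AApoAII fibrils intravenously. Livers of 4 mice were pooled in each group before sequencing, so the 16 mice gave 4 libraries and no group has a replicate error.

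The liver is the main site at which most amino acids are degraded. Nitrogen is removed by transaminases, dehydratases and glutaminase and enters the urea cycle, and the carbon skeletons enter gluconeogenesis, ketone body formation or the citric acid cycle. Branched chain amino acids are the known exception, since their transamination takes place largely in muscle and the liver oxidises the keto acids. Glucagon and glucocorticoids are known to raise several of these enzymes during fasting.

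Library totals ranged from 23442935 to 28814802 counts. The members' counts made up 1.73% (VS), 1.91% (VI), 1.89% (FS) and 2.35% (FI) of the totals. The 5 hepatocyte markers that were found summed to between 134024 and 149297 CPM, while 5 kidney markers summed to at most 0.12 CPM and 6 pancreas markers to at most 2.57 CPM. The VS library stood apart in skeletal muscle genes: the 13 muscle markers summed to 78.5 (VS), 10.2 (VI), 1.12 (FS) and 1.07 CPM (FI), with 1, 1, 4 and 8 of them at 0. VS is the denominator of VI versus VS and of FS versus VS, and the part of the muscle signal in these ratios was not tested. In the fibril libraries, 6 Kupffer cell markers summed to 288 CPM in FS and 278 in FI against 185 in VS and 234 in VI, and 9 neutrophil markers to 17.5 and 13.2 CPM against 2.67 and 3.28, with between 1 and 4 of the neutrophil markers at 0 in each library. Most of the neutrophil sum in FS and FI was Prtn3, at 13.1 and 10.1 CPM against 0.59 in VS and 1.11 in VI. Their part in the differences between fibril and vehicle libraries was not tested, and in bulk liver fewer cells of a type and less RNA per cell cannot be told apart.

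The members spanned a wide range of expression. Per transcript length, the FPKM (counts scaled to gene length and library size) of the lowest member, Mccc1, lay between 3.77 and 4.89 in the 4 libraries. Hpd was the highest member in VS, VI and FI, at 1916, 2017 and 2510 FPKM, and Mat1a was the highest in FS, at 1630 FPKM. Mat1a alone supplied between 22.2% of the members' counts in VS and 28.5% in FI. The median of the members' mean level was 315 CPM against 14.5 CPM over all 12180 genes kept, so their counting intervals were narrower than those of a typical gene.

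**Figure D1:**
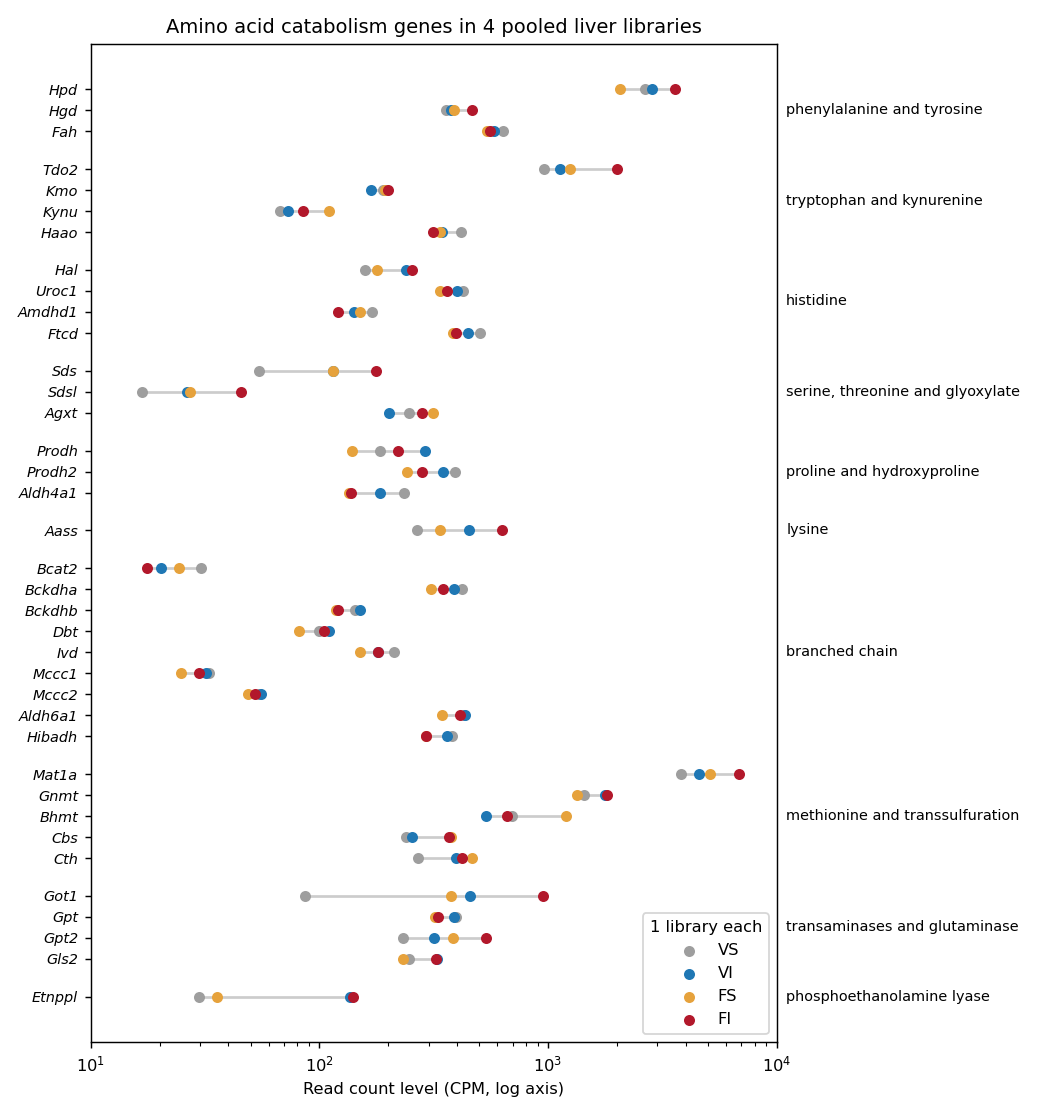
Read count level in CPM on a log axis (horizontal) of the 37 members, grouped by amino acid pathway (vertical), with 1 point for each of the VS, VI, FS and FI libraries. The points of most members lie close together, while those of Got1 run from 86.6 to 946 CPM and those of Etnppl fall into a low sedentary and a high trained pair.

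Training was compared in vehicle livers (VI versus VS) and in fibril livers (FI versus FS), and these comparisons share no library. Only Got1, Etnppl and Sds lay beyond 2-fold in VI versus VS, all 3 higher in VI, among 37 members. Of all genes, 3.44% lay beyond 2-fold there, 1.54% higher and 1.9% lower. Got1 and Etnppl lay beyond 2-fold in FI versus FS, both higher in FI, against 4.28% of all genes (1.75% higher and 2.53% lower). The median log2 ratio of the members for training was 0.07 in vehicle livers and 0.22 in fibril livers, with medians over all genes of 0.0035 and 0.0017. In VI versus VS the 95% counting interval lay above 0 for 19 members and below 0 for 14, where 22.3% and 21.7% of all genes did so. In FI versus FS it lay above 0 for 22 members and below 0 for 7, against 24.3% and 23.9% of all genes. A total of 15 members lay above 0 in both comparisons and 5 lay below 0 in both, against 10.3% and 9.2% of all genes, while 7 lay above 0 in one and below 0 in the other, against 6.61%. Intervals cover counting error only and not the difference between mice.

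Fibrils were compared in sedentary livers (FS versus VS) and in trained livers (FI versus VI), which share no library with each other. FS versus VS shares VS with VI versus VS, and FI versus VI shares FI with FI versus FS. Each also shares a library in the opposite role, FS with FI versus FS and VI with VI versus VS. A high FS library alone thus raises the fibril ratio and lowers the training ratio. Got1 and Sds lay beyond 2-fold in FS versus VS, both higher in FS, against 5.8% of all genes (3.6% higher and 2.2% lower). Got1 was the single member beyond 2-fold in FI versus VI, where 4.54% of all genes were, 2.59% higher and 1.95% lower. The median log2 ratio of the members for fibrils was -0.17 in sedentary and -0.0018 in trained livers, against 0.019 and 0.010 over all genes. In FS versus VS the interval lay above 0 for 15 members and below 0 for 21, against 27.2% and 25.7% of all genes, and in FI versus VI it lay above 0 for 17 and below 0 for 14, against 23.1% and 23.8%. The same direction was held in both comparisons by 14 members that were higher with fibrils and 14 that were lower, against 12.3% and 14.2% of all genes, and 2 members took opposite directions, against 4.67%.

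Because a single library gives no test, both factors were also fitted together in an additive model with edgeR's quasi-likelihood test, in which each level of training or fibrils has 2 libraries and 1 residual degree of freedom is left. With Benjamini-Hochberg adjustment over 11760 genes, 6 members rose with training, Sds, Sdsl, Prodh, Aass, Got1 and Etnppl, and none fell, where 1.34% of all genes passed (0.672% higher and 0.663% lower). With fibrils, Sds, Sdsl, Cbs, Got1 and Gpt2 rose and Aldh4a1 fell, 6 members in all, where 4.59% of all genes passed (2.64% higher and 1.96% lower). At an unadjusted p under 0.05, 16 members passed for training and 18 for fibrils, against 14.5% and 21.1% of all genes. The residual of this model is the departure from additivity and not a spread between mice. No member passed for training or for fibrils when that factor was fitted alone with edgeR, where 5 and 10 members had an unadjusted p under 0.05, as did 643 and 1614 of the 11760 genes. With 1 library left out, Etnppl passed for training without VS and without FS, and no other member passed for either factor. These fits hold 1 factor, since 3 libraries leave no residual for both. The other factor is then unevenly spread over the levels, so each change mixes in part of the other factor's difference. With only genes of at least 5 CPM in 2 libraries, Sdsl and Prodh no longer passed for training nor Aldh4a1 for fibrils, and Sdsl did not pass for training in DESeq2, each with an adjusted p just above 0.05.

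The starts of 3 genes are shown because Got1 had the widest range of all members, Etnppl separated the trained from the sedentary libraries, and Aass rose with training from a higher level. RefSeq (GRCm38.p6, the mm10 build) gave a window of 250 bases before and 50 after the start for 29 of the 37 members. The windows were searched on both strands for the core TGACG of the cyclic AMP response element, the C/EBP motif TTGCNNAA, the C/EBP-ATF composite TGATGNAA, the glucocorticoid receptor motif AGAACA and the TATA box TATAAA, and matches are in capitals. They are Got1 at chr19:43524556-43524855 (minus strand), Aass at chr6:23132937-23133236 (minus strand) and Etnppl at chr3:130617198-130617497 (plus strand), each 5′ to 3′ with the gene.
Got1: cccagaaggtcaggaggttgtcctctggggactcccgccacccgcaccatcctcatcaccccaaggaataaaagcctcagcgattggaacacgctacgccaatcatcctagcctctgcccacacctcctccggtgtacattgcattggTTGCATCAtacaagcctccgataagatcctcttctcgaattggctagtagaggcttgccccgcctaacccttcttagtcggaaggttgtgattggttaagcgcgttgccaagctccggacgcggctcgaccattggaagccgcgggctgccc
Aass: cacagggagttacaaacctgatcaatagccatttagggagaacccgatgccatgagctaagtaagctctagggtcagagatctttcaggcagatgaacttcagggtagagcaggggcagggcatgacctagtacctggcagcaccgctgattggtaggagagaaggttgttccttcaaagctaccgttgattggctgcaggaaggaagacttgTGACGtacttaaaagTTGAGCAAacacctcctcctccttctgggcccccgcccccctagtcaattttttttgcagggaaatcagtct
Etnppl: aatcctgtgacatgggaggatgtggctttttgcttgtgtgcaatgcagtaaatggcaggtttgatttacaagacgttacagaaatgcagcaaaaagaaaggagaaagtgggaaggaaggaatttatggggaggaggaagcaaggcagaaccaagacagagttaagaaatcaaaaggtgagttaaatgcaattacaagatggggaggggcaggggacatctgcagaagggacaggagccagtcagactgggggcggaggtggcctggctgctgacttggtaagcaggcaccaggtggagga
The capitals in the Got1 window are TGATGNAA on the opposite strand, first base at -102 from the start, a motif held by 3.97% of 32851 windows and by no other member. In the Aass window they are TGACG at -37 and TTGCNNAA on the opposite strand at -22, held by 20.8% and 10.8% of windows, and the matches do not overlap. The Etnppl window held none of the 5 motifs. TGACG was also found in Ftcd, TTGCNNAA in Hal, Hgd and Prodh2, AGAACA in Agxt, Aldh6a1, Bckdhb, Haao and Kmo (19.0% of windows), and TATAAA in Ftcd, Hal, Hgd and Tdo2 (13.6%). A match describes letters and not a bound site.

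The cytosolic aspartate aminotransferase Got1 (ENSMUSG00000025190, mm10 chr19:43499752-43524605, minus strand) moves amino groups between aspartate and glutamate and serves the malate-aspartate shuttle. Its level was 86.6 (VS), 454 (VI), 376 (FS) and 946 CPM (FI). VS was lowest, either trained or fibril library alone was intermediate, and FI was highest. The ratio for training was 5.24-fold in vehicle livers (log2 2.39, 95% counting interval 2.32 to 2.46) and 2.52-fold in fibril livers (log2 1.33, 1.30 to 1.37). For fibrils it was 4.34-fold in sedentary livers (log2 2.12, 2.05 to 2.19) and 2.08-fold in trained livers (log2 1.06, 1.03 to 1.09). The level was higher with either factor in each background, and the ratio was smaller where the other factor was present. The log2 ratio for training was lower by 1.06 in fibril than in vehicle livers (difference -1.06, counting interval -1.13 to -0.98), which has no test with 1 library a group. Ranked from the highest ratio of 12180 genes, Got1 was number 15 and 90 for training (vehicle, fibril livers) and number 59 and 268 for fibrils (sedentary, trained livers). FI exceeded VS 10.9-fold (log2 3.45, 3.38 to 3.52). In the additive model Got1 rose with training (log2 change 1.86, SE 0.25, adjusted p = 0.027, edgeR) and with fibrils (1.58, SE 0.24, adjusted p = 0.019). In fits of 1 factor with a library left out, each change mixes in the other factor. Without VS the change of Got1 was 0.90 for training and 0.54 for fibrils, and without FI it was 0.97 and 0.48. It was 3.02 for training without FS and 2.93 for fibrils without VI, and none of these passed. By FPKM it was number 29 of the 37 members in VS and number 5 in FI. The ratios against VS use the library with the muscle signal, and Got1 is also expressed in muscle. Its level was lowest in VS, and the part of muscle RNA in these ratios was not tested. FI versus FS and FI versus VI, which do not use VS, were 2.52-fold and 2.08-fold.

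The alanine aminotransferases exchange the amino groups of alanine and glutamate, Gpt in the cytosol and Gpt2 in mitochondria, and the pair differed. Gpt2 (mm10 chr8:85492576-85527560) was at 233 (VS), 316 (VI), 385 (FS) and 537 CPM (FI). Both fibril libraries lay above both vehicle libraries, and within each pair the trained library was the higher. Gpt2 rose with fibrils (log2 change 0.75, SE 0.12, adjusted p = 0.017, edgeR), with log2 ratios of 0.73 (0.68 to 0.77) in sedentary and 0.77 (0.73 to 0.81) in trained livers. Its fibril change was 0.49 without FI, in a fit of 1 factor that mixes in training. For training its log2 change of 0.46 (SE 0.12) missed the threshold at an adjusted p of 0.14. Gpt was at 394, 390, 321 and 330 CPM in VS, VI, FS and FI, lower in both fibril libraries, and missed the threshold for fibrils (log2 change -0.27, adjusted p = 0.25). Gls2, the liver form of glutaminase, which frees ammonia from glutamine, was at 247, 325, 232 and 322 CPM in the same order. Its trained libraries were higher by log2 0.40 in vehicle and 0.47 in fibril livers, with an adjusted p of 0.15.

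Etnppl (ENSMUSG00000019232, mm10 chr3:130617448-130635750) encodes ethanolamine-phosphate phospho-lyase, a pyridoxal phosphate enzyme that degrades phosphoethanolamine, a product of phospholipid breakdown, and is related to transaminases. It was at 29.8 (VS), 136 (VI), 35.7 (FS) and 140 CPM (FI). Both trained libraries lay far above both sedentary ones, and the levels with and without fibrils were close. The ratio for training was 4.56-fold in vehicle livers (log2 2.19, 2.07 to 2.31) and 3.91-fold in fibril livers (log2 1.97, 1.87 to 2.07), number 23 from the top of 12180 genes in either comparison. Etnppl rose with training (log2 change 2.08, SE 0.12, adjusted p = 0.00093, edgeR). For fibrils its log2 change was 0.15 (SE 0.12, adjusted p = 0.51), and its log2 ratios were 0.26 (0.12 to 0.40) in sedentary and 0.04 (-0.03 to 0.11) in trained livers.

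Serine dehydratase, Sds, turns serine into pyruvate and ammonia and is known as an enzyme of gluconeogenesis from amino acids. Its level was 54.6 (VS), 114 (VI), 114 (FS) and 177 CPM (FI). The VI and FS libraries were equal to 3 digits, between VS and FI. The log2 ratio for training was 1.06 (0.97 to 1.16) in vehicle and 0.64 (0.57 to 0.70) in fibril livers, and for fibrils it was 1.06 (0.97 to 1.16) in sedentary and 0.64 (0.57 to 0.71) in trained livers. Sds rose with training (log2 change 0.85, SE 0.13, adjusted p = 0.034, edgeR) and with fibrils (0.85, SE 0.13, adjusted p = 0.016). Fits of 1 factor with a library left out mix in the other factor. In them the change of Sds lay between 0.35 (without VS) and 1.42 (without FS) for training. For fibrils it lay between 0.35 (without VS) and 1.42 (without VI). It was 0.43 for training and 0.44 for fibrils without FI, and no fit with a library left out passed. FI exceeded VS 3.25-fold.

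Sdsl, a gene related to Sds by sequence, lies close to it on mm10 chromosome 5 on the other strand (120458186 to 120472810, with Sds at 120476531 to 120483932). It was at 16.7 (VS), 26.3 (VI), 27.2 (FS) and 45.6 CPM (FI), the same order of the groups as for Sds. Per length Sds was the more abundant of the pair in every library, with 45.6 FPKM against 11.4 FPKM in VS and 143 against 30.1 in FI. Sdsl rose with training (log2 change 0.70, SE 0.12, adjusted p = 0.04, edgeR) and with fibrils (0.75, SE 0.12, adjusted p = 0.017). Fits of 1 factor again mix in the other factor. For training the change of Sdsl in them was 0.40 without VS, 0.26 without FI, 1.05 without VI and 1.11 without FS. For fibrils it was 0.47 without VS, 0.34 without FI and 1.12 without VI, and no such fit passed. Agxt, which transfers the amino group of alanine to glyoxylate, was at 247 (VS), 202 (VI), 315 (FS) and 280 CPM (FI). Its fibril libraries were the higher and its trained libraries the lower, and neither factor passed (adjusted p of 0.42 for training and 0.096 for fibrils). Of the markers of hepatocytes at the portal end of the lobule, where serine dehydratase is known to be expressed, 7 of 7 were found and none was at 0, and they summed to 9287 (VS), 11548 (VI), 11611 (FS) and 13632 CPM (FI). Pck1, Cps1 and Ass1 were lowest in VS and highest in FI, whereas Cyp2f2 (381, 295, 268 and 232 CPM), Aldh1b1 (133, 110, 88.3 and 88.2 CPM) and Pigr (1837, 1808, 1378 and 1432 CPM) were highest in VS and Cdh1 was highest in FS. The sum of 8 markers of the central end, none at 0, was 12519, 11039, 7057 and 10089 CPM, most of it Cyp2e1. The part of either list in the Sds result was not tested.

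Aass, the enzyme that carries out the opening steps of lysine degradation through saccharopine, was at 266 (VS), 450 (VI), 338 (FS) and 631 CPM (FI). Each trained library was above its sedentary counterpart and each fibril library above its vehicle counterpart. The log2 ratio for training was 0.76 (0.71 to 0.80) in vehicle and 0.90 (0.87 to 0.94) in fibril livers, and Aass rose with training (log2 change 0.83, SE 0.12, adjusted p = 0.029, edgeR). The training change was 0.58 without FI and 1.06 without VI, in fits of 1 factor that mix in fibrils. Its log2 change with fibrils, 0.42 (SE 0.12), had an adjusted p of 0.1.

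The 3 proline genes were all lower with fibrils, each with an interval below 0 in both comparisons. Their median log2 ratio was -0.69 in sedentary livers, where 48.0% of all genes were lower and 25.7% had an interval below 0. In trained livers it was -0.39, where 48.7% and 23.8% of all genes did so. With training in vehicle livers 1 was higher and 2 were lower. In fibril livers all 3 were higher, 2 with an interval above 0, against 24.3% of all genes. Prodh, which opens mitochondrial proline oxidation, was at 185 (VS), 290 (VI), 139 (FS) and 221 CPM (FI). Training gave nearly the same log2 ratio in vehicle livers, 0.65 (0.59 to 0.70), as in fibril livers, 0.66 (0.61 to 0.72), and Prodh rose with training (log2 change 0.66, SE 0.11, adjusted p = 0.041, edgeR). Its log2 ratios with fibrils were -0.41 (-0.47 to -0.35) and -0.39 (-0.44 to -0.34) in sedentary and trained livers, with an adjusted p of 0.092. Aldh4a1 acts on the products of proline and hydroxyproline oxidation and makes glutamate from that of proline. Its level was 234 (VS), 184 (VI), 135 (FS) and 137 CPM (FI), with both fibril libraries below both vehicle libraries. Aldh4a1 fell with fibrils (log2 change -0.61, SE 0.13, adjusted p = 0.042, edgeR), the single member that fell for either factor. Prodh2, which oxidises hydroxyproline, was at 391, 348, 242 and 281 CPM in VS, VI, FS and FI, again lowest in the fibril libraries, with a log2 change of -0.50 (SE 0.14, adjusted p = 0.086).

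**Figure D2:**
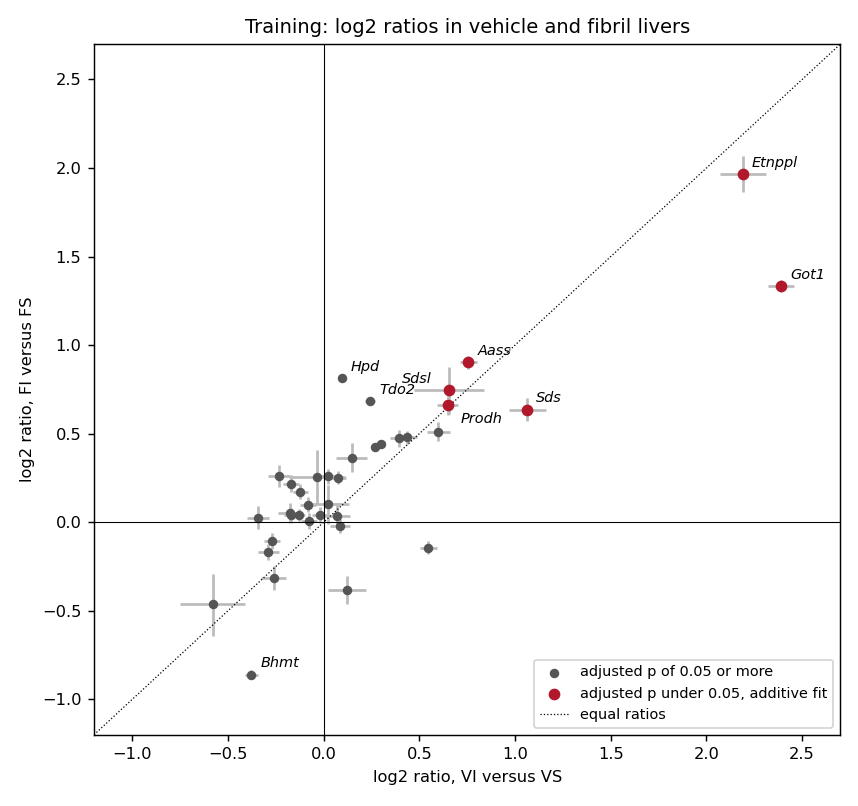
Log2 ratio for training in vehicle livers (VI versus VS, horizontal) against fibril livers (FI versus FS, vertical) for the 37 members, with 95% counting intervals as bars, red points for the 6 that passed the additive fit for training and a dotted line for equal ratios. Etnppl and Got1 lie farthest from 0 in both directions, with Etnppl near the line and Got1 below it.

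**Figure D3:**
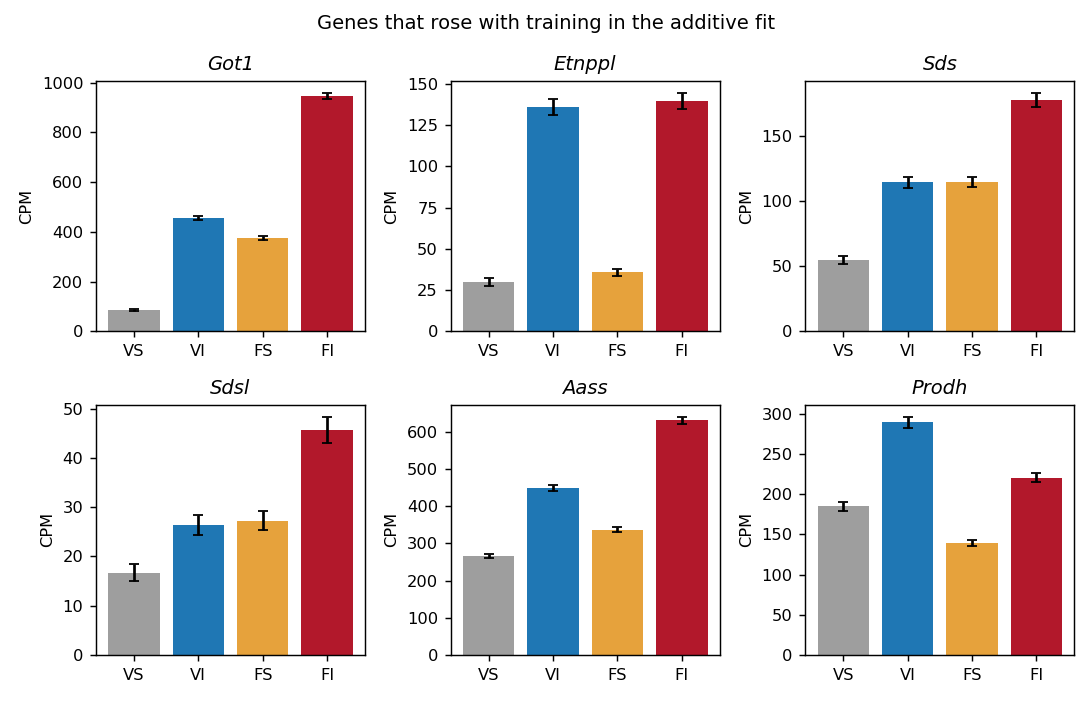
CPM in the VS, VI, FS and FI libraries of the 6 members that rose with training in the additive fit, with exact 95% counting intervals as error bars and 1 pooled library per bar. Etnppl is high in both trained libraries alone, Got1, Sds and Sdsl are lowest in VS and highest in FI, and Prodh is lower in each fibril library than in its vehicle counterpart.

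Of the 3 tyrosine members, none passed for either factor. Hpd, which makes homogentisate, was at 2667 (VS), 2846 (VI), 2054 (FS) and 3607 CPM (FI), so that the fibril libraries were the lowest and the highest. The log2 ratio for training was 0.09 (0.08 to 0.11) in vehicle livers and 0.81 (0.80 to 0.83) in fibril livers (difference 0.72, counting interval 0.70 to 0.74), and the fitted training change was 0.45 (SE 0.19, adjusted p = 0.34, edgeR). Hgd, which opens the ring of homogentisate, ranged from 359 CPM in VS to 463 in FI. Fah, which carries out the last step, ranged from 541 CPM in FS to 637 in VS.

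Tdo2, the tryptophan dioxygenase that opens the kynurenine pathway and a known glucocorticoid target in liver, was at 956 (VS), 1131 (VI), 1244 (FS) and 1997 CPM (FI). FI was highest and VS lowest, 2.09-fold apart. The log2 change was 0.46 (SE 0.15, adjusted p = 0.24) with training and 0.60 (SE 0.15, adjusted p = 0.074) with fibrils. Neither passed in the edgeR model described above. Tdo2 passed for fibrils in DESeq2 and limma-voom, and for both factors in edgeR with no filter beyond 1 count. Kynu, which cleaves kynurenine and hydroxykynurenine, was at 67.0 (VS), 72.9 (VI), 110 (FS) and 84.4 CPM (FI). It was highest in FS, with a log2 ratio of 0.71 (0.63 to 0.80) against VS, and its fibril change of 0.46 (SE 0.14) did not pass (adjusted p = 0.11). Kmo, which hydroxylates kynurenine, stayed between 168 and 200 CPM, and Haao, which acts after Kynu on hydroxyanthranilate, between 313 CPM in FI and 416 in VS.

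The histidine genes act in the order Hal, Uroc1, Amdhd1 and Ftcd, and none passed in the edgeR model described above. Hal, the histidine ammonia-lyase, was at 158 (VS), 240 (VI), 178 (FS) and 254 CPM (FI). Both trained libraries were above both sedentary ones, with log2 ratios of 0.60 (0.54 to 0.66) and 0.51 (0.46 to 0.56) and an adjusted p of 0.07 for training in edgeR. Hal passed for training in DESeq2, in limma-voom, and in edgeR with DESeq2 size factors or with no filter beyond 1 count. The enzymes that follow did not share this: Uroc1 ranged from 338 to 425 CPM, Ftcd from 385 to 502 and Amdhd1 from 121 to 169. Amdhd1, which lies close to Hal on mm10 chromosome 10 on the other strand, was lower in the trained library in both backgrounds, with log2 ratios of -0.26 (-0.33 to -0.20) and -0.32 (-0.38 to -0.25). All 3 were lower with fibrils in both sedentary and trained livers, with log2 ratios between -0.38 and -0.15.

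In methionine metabolism Cbs passed for fibrils in the edgeR model described above, and the other 4 members did not pass for either factor there. Of 10 other methionine genes, 8 were lower in FS than in VS, against 48.0% of all genes. All 8 had an interval below 0, against 25.7% of all genes. The median log2 ratio of the 10 was -0.39. The lower ones included Ahcy (-0.38), Suox (-0.40) and Tst (-0.66), while the Bhmt paralog Bhmt2 had a ratio of 0.00092 and Cdo1 one of 0.20. Cbs, which condenses homocysteine with serine, was at 239 (VS), 254 (VI), 375 (FS) and 369 CPM (FI). Both fibril libraries stood above both vehicle libraries and training made little difference. Cbs rose with fibrils (log2 change 0.60, SE 0.12, adjusted p = 0.034, edgeR), with log2 ratios of 0.65 (0.60 to 0.70) and 0.54 (0.50 to 0.59) in sedentary and trained livers, and its training change was 0.03 (SE 0.12). Cth, which makes cysteine from the product of Cbs, was at 270, 395, 464 and 420 CPM in VS, VI, FS and FI. VS was low and the other 3 libraries were close, so the fibril log2 ratio was 0.78 (0.73 to 0.82) in sedentary and 0.09 (0.05 to 0.13) in trained livers, and neither factor passed (adjusted p of 0.66 and 0.21). Bhmt, which remethylates homocysteine with betaine, was at 699, 538, 1202 and 662 CPM in the same order, highest in FS. The FS library exceeded VS by a log2 ratio of 0.78 (0.76 to 0.81), while FI against FS gave -0.86 (-0.89 to -0.83), the lowest training ratio of any member. The additive changes of Bhmt were -0.62 (SE 0.15, adjusted p = 0.13) with training and 0.54 (SE 0.15, adjusted p = 0.094) with fibrils, and it passed as lower with training in DESeq2. Mat1a, the liver enzyme that makes S-adenosylmethionine, was at 3809 (VS), 4595 (VI), 5102 (FS) and 6852 CPM (FI). Its order of groups was that of Tdo2, and its changes of 0.35 and 0.50 (SE 0.15 each) did not pass (adjusted p of 0.34 and 0.11). Gnmt, which uses S-adenosylmethionine to methylate glycine, was at 1436, 1770, 1338 and 1814 CPM, higher in both trained libraries, with an adjusted p of 0.28 for training.

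**Figure D4:**
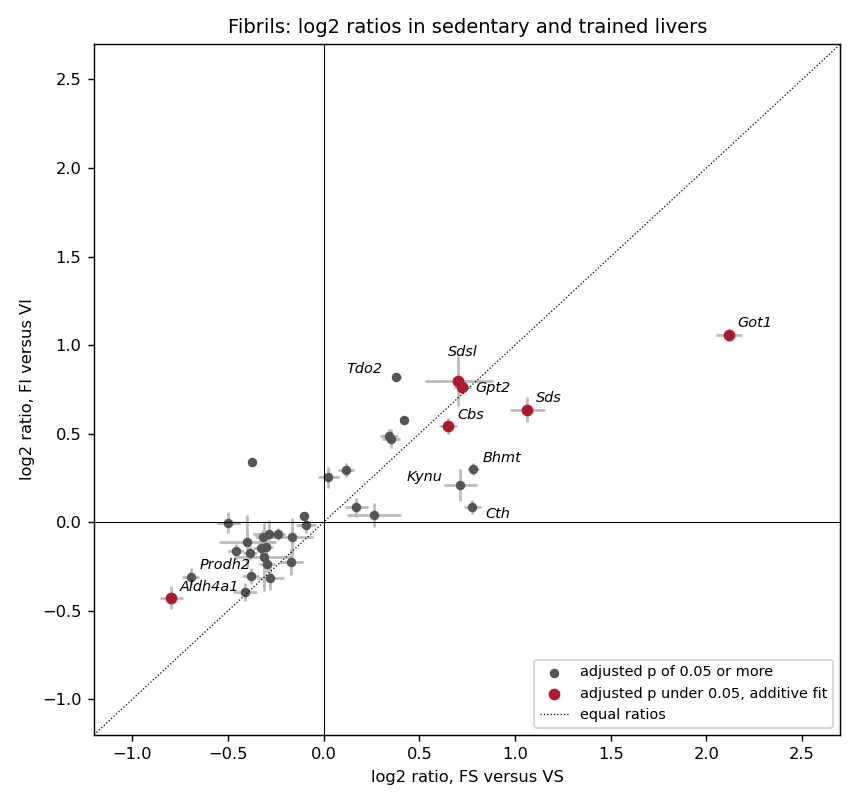
Log2 ratio for fibrils in sedentary livers (FS versus VS, horizontal) against trained livers (FI versus VI, vertical) for the 37 members, with 95% counting intervals as bars, red points for the 6 that passed the additive fit for fibrils and a dotted line for equal ratios. Got1 lies farthest from 0, Gpt2 and Sdsl lie near the line, Bhmt and Cth lie below the line, higher with fibrils in sedentary than in trained livers, and Aldh4a1 is the red point below 0.

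The 9 branched chain members were lower with fibrils in both comparisons, by small amounts. In FS versus VS all 9 were lower and all 9 intervals lay below 0, with a median log2 ratio of -0.32, where 48.0% of all genes were lower and 25.7% had an interval below 0. In FI versus VI all 9 were again lower, Ivd with a log2 ratio of only -0.0018. Of the intervals 5 lay below 0, and the median was -0.11, where 48.7% of all genes were lower and 23.8% had an interval below 0. Of 15 other branched chain genes, 14 were lower in FS versus VS and 10 in FI versus VI. None of the 9 passed the additive fit for either factor, and the smallest adjusted p for fibrils was 0.15, for Hibadh. Bcat2, the mitochondrial branched chain aminotransferase, which is known to be far higher in muscle than in liver, was at 30.3 (VS), 20.3 (VI), 24.4 (FS) and 17.7 CPM (FI). It was highest in VS, the library with 78.5 CPM of muscle markers, whose part was not tested, and FI versus FS, which does not use VS, had a log2 ratio of -0.46 (-0.64 to -0.29). Subunits of the branched chain keto acid dehydrogenase were lower in FS than in VS, Bckdha at 307 against 422 CPM (log2 -0.46, -0.50 to -0.42), Bckdhb at 118 against 143 CPM (-0.28, -0.35 to -0.21) and Dbt at 81.6 against 99.4 CPM (-0.29, -0.37 to -0.20).

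Further along leucine oxidation, Ivd, the isovaleryl-CoA dehydrogenase, was at 212 (VS), 180 (VI), 150 (FS) and 180 CPM (FI). Its sedentary libraries were the highest and the lowest and its trained libraries were equal, and FS was below VS by a log2 ratio of -0.50 (-0.56 to -0.44). Mccc1 and Mccc2, the subunits of methylcrotonyl-CoA carboxylase, ranged from 24.9 to 32.8 CPM and from 48.5 to 55.3 CPM. For valine, Hibadh, a dehydrogenase of hydroxyisobutyrate, was at 380 (VS), 361 (VI), 292 (FS) and 293 CPM (FI). Aldh6a1, which acts next, was at 429, 435, 344 and 411 CPM in the same order, lowest in FS. Hibadh had log2 ratios for fibrils of -0.38 (-0.42 to -0.34) in sedentary and -0.30 (-0.35 to -0.26) in trained livers, and Aldh6a1 of -0.32 (-0.36 to -0.28) and -0.08 (-0.12 to -0.04). With training in vehicle livers the 9 genes had a median log2 ratio of -0.03. With training in fibril livers 8 of 9 were higher, 5 with an interval above 0, and the median was 0.17. Of all genes, 50.2% were higher there and 24.3% had an interval above 0. Of the 8, Bckdhb and Hibadh turned lower when libraries were scaled by total counts.

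**Figure D5:**
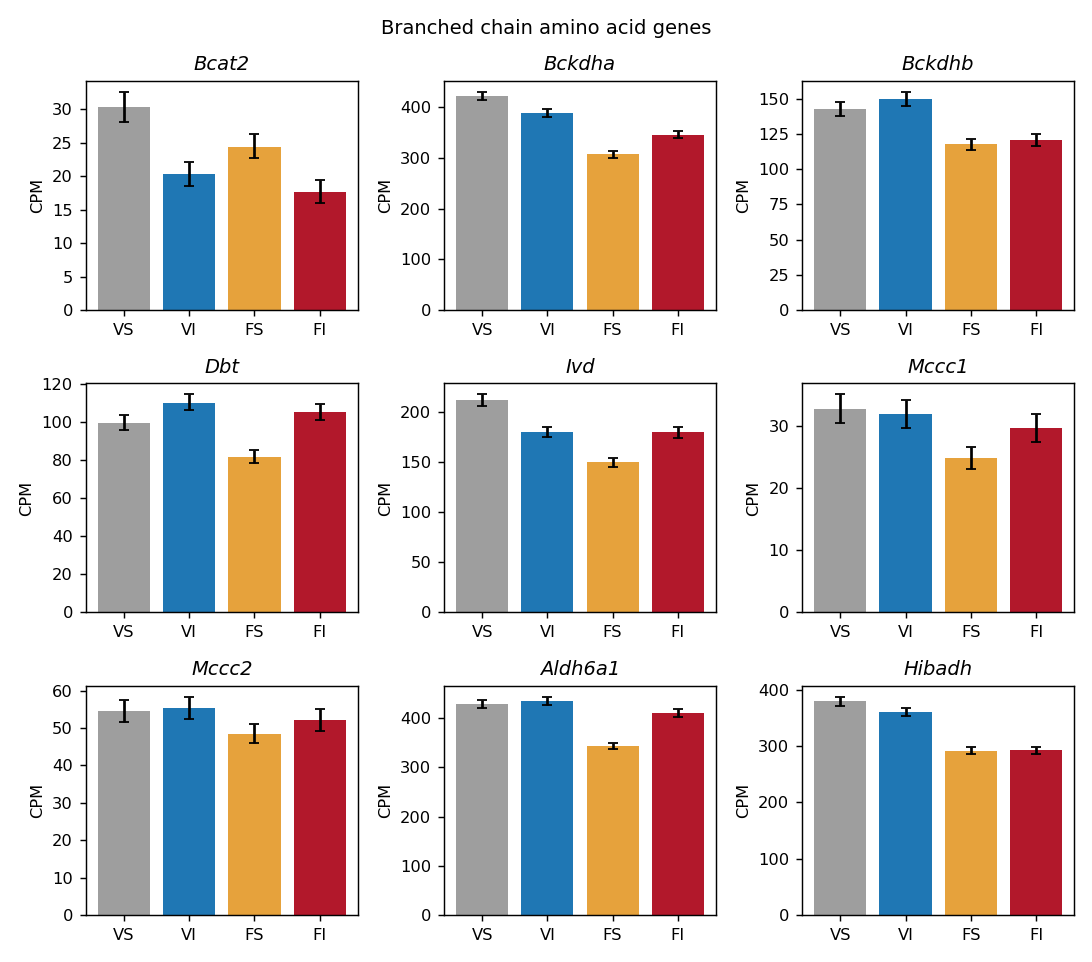
CPM of the 9 branched chain genes in the VS, VI, FS and FI libraries, with exact 95% counting intervals as error bars and 1 pooled library per bar. In every panel FS is below VS, by a log2 ratio of between -0.50 and -0.17.

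Summed over members, the pathways took different courses. The 5 methionine genes summed to 6454 (VS), 7551 (VI), 8481 (FS) and 10117 CPM (FI), most of it Mat1a. The 4 transaminase and glutaminase genes summed to 961, 1485, 1314 and 2136 CPM, of which Got1 alone gave 86.6, 454, 376 and 946 CPM. The 9 branched chain genes summed to 1802, 1731, 1389 and 1555 CPM.

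Other genes of the same pathways were taken from a list of 63, of which 60 were kept and entered the additive model. For training 2 of 60 rose and none fell, and for fibrils 3 of 60 rose and none fell, beside 6 of 37 members for either factor, where 1.34% of all genes passed for training and 4.59% for fibrils. Tat, the tyrosine aminotransferase and a known glucocorticoid target, was at 938 (VS), 2018 (VI), 3226 (FS) and 5278 CPM (FI). The order was that of Sds and Tdo2, and Tat rose with training (log2 change 0.91, SE 0.16, adjusted p = 0.043, edgeR) and with fibrils (1.58, SE 0.16, adjusted p = 0.0045). Csad, which makes hypotaurine, rose with training (93.3, 196, 75.8 and 110 CPM in VS, VI, FS and FI, log2 change 0.81, SE 0.15, adjusted p = 0.048). With fibrils, Acmsd, which diverts tryptophan carbon from NAD synthesis, rose from 9.4 and 12.3 CPM in VS and VI to 25.4 and 37.1 CPM in FS and FI (log2 change 1.52, SE 0.14, adjusted p = 0.0026). Ccbl1, a kynurenine aminotransferase also named Kyat1, rose with fibrils as well (79.0, 75.9, 113 and 114 CPM, log2 change 0.55, SE 0.11, adjusted p = 0.034). The median log2 ratio of the 60 genes was -0.17 and 0.02 for training (vehicle, fibril livers) and -0.28 and -0.13 for fibrils (sedentary, trained livers). In FS versus VS 50 of the 60 were lower, against 48.0% of all genes, and 44 had an interval below 0, against 25.7% of all genes.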

How the data were processed

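Liver RNA of 4 pooled groups was sequenced, and the authors deposited read counts per gene without normalization together with FPKM values, of which all 69722 above 0 lay within 0.1% of values recomputed from the counts and gene lengths. The submitters' processing notes name fastp 0.23.2, STAR 2.5, HTSeq 0.6.1 and mm10, without roles.

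Libraries (23442935 to 28814802 counts) were scaled by TMM. To each count 0.5 was added before log2 ratios were formed. Their 95% intervals are Clopper-Pearson intervals, conditional on the summed count of both libraries, and cover counting error only. Ratios used the 12180 genes with at least 1 CPM in a library. With 1 library a group, these contrasts have no test. The additive model of training and fibrils (3 coefficients) was fitted with edgeR 4.0.16 (robust quasi-likelihood) to 11760 genes with at least 1 CPM in 2 libraries, with a threshold of 0.05 after Benjamini-Hochberg adjustment, and was tested on simulated data. The SE of a log2 change is its absolute value divided by the square root of the quasi-likelihood F statistic. It is no spread between mice. R 4.3.3, limma 3.58.1, DESeq2 1.42.0, Python 3.11.15 and matplotlib 3.10.9 were also used. All 37 members are named, with full values for those past the additive threshold or beyond 2-fold, filled to at least 12 by the largest ratio. The members and lists were chosen with earlier results of these data known. All 37 identifiers were found in GENCODE M21, 22 with the same start and end.

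Alternatives were DESeq2 size factors, total counts, other filters, FPKM, a 1.5-fold threshold, DESeq2, limma-voom, no robust estimation, each factor alone and leaving out each library.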

Additional observations from a re-analysis of the deposited data

Results flagged for a closer look

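Several members differed in opposite directions in the 2 backgrounds, with both counting intervals off 0. None of these differences was tested, since each group is 1 library. Over all genes, 6.61% did so for training and 4.67% for fibrils, and 9 of the 37 members are listed.

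For training in vehicle and then in fibril livers, the log2 ratio of Cth, of the transsulfuration branch, was 0.55 and -0.14, a difference of -0.69. Kynu, of the kynurenine pathway, had 0.12 and -0.38, a difference of -0.50. Both were thus higher with training in vehicle livers and lower in fibril livers. The other 5 went the opposite way. Ivd had -0.23 and 0.26, a difference of 0.50, and Prodh2 had -0.17 and 0.22, a difference of 0.39. Bckdha had -0.12 and 0.17, a difference of 0.30, Uroc1 had -0.08 and 0.10, a difference of 0.18, and Fah had -0.13 and 0.04, a difference of 0.17. With total counts as the scaling, the ratio of Fah in fibril livers turned below 0.

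For fibrils in sedentary and then in trained livers, Hpd had -0.38 and 0.34, a difference of 0.72, and Gnmt had -0.10 and 0.03, a difference of 0.14.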

How the results depend on the processing

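With a threshold of 1.5-fold in place of 2-fold, 7 members lay beyond it in VI versus VS, 9 in FI versus FS, 10 in FS versus VS and 5 in FI versus VI. The counts at 2-fold were equal, and the medians kept their direction, under DESeq2 size factors and total counts. Both other filters kept all 37 members and left the scaling unchanged, so their values could not differ. FPKM with a pseudocount of 1 or 0.1 restates total counts per gene length and is no separate check. With no filter beyond 1 count, 12 members passed for training and 15 for fibrils, where 3.71% and 7.62% of 19939 genes passed. With each factor alone in edgeR, 0 passed for either, and 5 and 10 had an unadjusted p under 0.05. Leaving out each library in turn, in a model of 1 factor, gave 0 to 1 members for training (Etnppl, without VS and without FS) and 0 to 0 for fibrils, where 2 to 10 and 3 to 10 members had an unadjusted p under 0.05. Fitted additively, DESeq2 gave 7 and 7 members for training and fibrils, as did limma-voom, with Hal gained for training in both, Bhmt (lower) in DESeq2, and Tdo2 gained for fibrils in both, and a filter of 5 CPM in 2 libraries gave 4 and 5. Of 132 recomputed calls of single members, 70 stayed past the threshold, 62 did not, and 0 turned direction. Total counts turned the sign of 7 members in FI versus FS (Fah, Kmo, Ftcd, Aldh4a1, Bckdhb, Hibadh and Gpt). No paired analysis was possible because each group is 1 pooled library and the labels carry no replicate numbers.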

Other observations

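Of 13 regulators listed for these enzymes, none passed for training in edgeR, against 1.34% of all genes. For training 6 had an unadjusted p under 0.05, against 14.5% of all genes, and for fibrils 5 did, against 21.1%. Foxa2, a forkhead factor of hepatocytes, was the 1 that passed for fibrils, against 4.59% of all genes. It fell with fibrils (37.5, 36.5, 24.5 and 20.7 CPM for VS, VI, FS and FI, log2 change -0.72, adjusted p = 0.02, edgeR). Ppargc1a, a coactivator known to act in gluconeogenesis, was at 11.0, 19.9, 17.5 and 25.6 CPM in that order, with adjusted p of 0.072 for training and 0.092 for fibrils. Gcgr, the glucagon receptor, was at 351, 274, 263 and 210 CPM in the same order, lowest in FI, with adjusted p of 0.25 and 0.1. Cebpa was at 618, 402, 421 and 367 CPM, highest in VS, with adjusted p of 0.26 and 0.22. Klf15 was at 218, 201, 277 and 294 CPM, higher in the fibril libraries, with adjusted p of 0.98 and 0.083 in edgeR. Nr3c1, the glucocorticoid receptor, was at 87.6, 81.5, 72.7 and 75.0 CPM, highest in VS, with adjusted p of 0.94 and 0.36.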
